A study of Mus musculus with 12 samples.

Results

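Solute carrier genes (the Slc genes) encode membrane proteins that move sugars, amino acids, ions, metals, nucleosides, vitamins and lipids across the plasma membrane and the membranes of organelles. They were followed in RNA-seq of type 1 invariant natural killer T cells (iNKT1 cells), T cells that recognise lipids on CD1d and are defined by the transcription factor T-bet. A gene was taken when its mouse symbol was Slc followed by a number, a letter and a number and its mean over the 12 libraries was at least 100 deposited units. The table of 14004 genes held 201 genes with such a symbol, and 150 of them reached that mean. The members were thus chosen for their level, so the levels below are a description, while the differences between groups were not used to choose them. A member close to that mean can have reached it through 1 group, so counts over the members describe them and are no support for a general difference. All 150 passed the filter on low values and were tested. Just inside the limit lay Slc16a4 (mean 100) and Slc25a42 (mean 101), and just outside it Slc41a3 (mean 99.7) and Slc25a26 (mean 91.7).

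Cells that bound CD1d tetramer and carried YFP were sorted from thymus and liver of mice. Every group carried the Tbx21Cre transgene, with Cre driven by the promoter of Tbx21 (the T-bet gene), and the Rosa26-YFP reporter. Control cells carried these, with no floxed Ets1 named in the labels (Tbx21Cre Rosa26-YFP+), and conditional knockout (cKO) cells carried floxed alleles of the transcription factor gene Ets1 as well (Tbx21Cre Ets1F/F Rosa26-YFP+). The 2 genotypes and 2 tissues gave 4 groups of 3 libraries. The labels give no age of the mice and do not say whether the libraries came from separate mice, so p-values rest on sample-to-sample spread that may be partly or wholly technical.

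T cells at rest take up modest amounts of nutrients and raise glucose, amino acid and iron uptake when they are activated. Slc2a1 and Slc2a3 encode the glucose transporters GLUT1 and GLUT3, and Slc7a5 with Slc3a2 encodes a carrier of large neutral amino acids. The Slc25 family lies in the inner mitochondrial membrane for the most part and passes nucleotides, phosphate and metabolites between the matrix and the cytosol. Cation-chloride cotransporters (Slc12) and bicarbonate or proton exchangers (Slc4, Slc9) set cell volume and pH, and the Slc39 and Slc30 families carry zinc into and out of the cytosol.

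Over both tissues, 7 of the 150 members passed the test, against 2.27% of all genes tested. Slc25a24, a mitochondrial carrier of ATP-Mg and phosphate, Slc41a2, a magnesium transporter, and Slc25a4, an ADP/ATP carrier, rose in cKO cells. Among the 4 that fell were Slc4a7, a sodium bicarbonate cotransporter, Slc39a4, a zinc importer, and Slc2a3, the glucose transporter GLUT3. The members with the highest values in the classes of amino acid, nucleoside and choline carriers were not among the 7.

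The sequence upstream of the 3 members that rose is shown because these genes rose in cKO cells over both tissues and Ets1, the deleted gene, encodes a factor that binds DNA at sites with a GGAA core. The 3 runs are the 250 bases before the RefSeq start site (GRCm38.p6), read 5′ to 3′ on the strand of the gene. The GENCODE gene models used for the positions below begin further upstream for 2 of them, so that 222 of these bases lie inside the gene model of Slc25a4 and 65 inside that of Slc41a2. Capitals mark a match to CCGGAAG or CAGGAAG on either strand. A GGAA core outside these motifs is not marked, and each of the 3 windows holds such a core or its reverse complement.
Slc25a24 (chr3:109122899-109123148, plus strand): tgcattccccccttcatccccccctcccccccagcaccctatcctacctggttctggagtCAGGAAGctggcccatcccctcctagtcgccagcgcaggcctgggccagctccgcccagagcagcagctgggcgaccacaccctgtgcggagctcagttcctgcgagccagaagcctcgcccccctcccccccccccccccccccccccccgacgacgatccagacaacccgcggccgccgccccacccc
Slc41a2 (chr10:83337818-83338067, minus strand): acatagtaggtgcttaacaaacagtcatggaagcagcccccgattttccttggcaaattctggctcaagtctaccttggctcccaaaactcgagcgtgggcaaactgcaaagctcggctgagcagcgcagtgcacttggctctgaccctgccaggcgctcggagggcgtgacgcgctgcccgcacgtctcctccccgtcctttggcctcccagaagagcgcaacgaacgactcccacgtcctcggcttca
Slc25a4 (chr8:46211063-46211312, minus strand): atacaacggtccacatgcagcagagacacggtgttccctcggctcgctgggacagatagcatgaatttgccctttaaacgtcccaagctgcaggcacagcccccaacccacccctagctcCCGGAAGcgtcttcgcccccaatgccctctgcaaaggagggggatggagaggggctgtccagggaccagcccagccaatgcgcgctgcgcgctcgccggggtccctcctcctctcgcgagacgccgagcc

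In these windows CAGGAAG began 190 bases before the start of Slc25a24 and CCGGAAG 130 bases before the RefSeq start of Slc25a4, within its GENCODE gene model, and the window of Slc41a2 held neither run of letters. Over windows from 250 bases before to 50 bases after the start, which were at hand for 111 of the 150 members, CCGGAAG or its reverse complement was found in 29 (26.1%). It was found in 23.7% of the 7414 genes of the table with a mean of at least 100 and in 9.93% of all 27025 genes with a window. CAGGAAG or its reverse complement was found in 22 members (19.8%), against 15.3% and 14.8%. At least 1 of these motifs was found in 45 members (40.5%), against 35.6% and 23.1%. A match is a run of letters and not a binding site.

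Ets1 RNA itself was lower in the cKO libraries, whose labels name floxed Ets1. It was at 23692, 28051 and 19493 deposited units in control thymus and 11817, 7069 and 5788 in cKO thymus. Liver values were 18773, 18528 and 15910.2 in control and 3594, 4425 and 5787 in cKO libraries. The groups did not overlap in either tissue, and in thymus the log2 fold change was -1.58 ± 0.27 (SE, limma adjusted p = 0.0095) and -1.97 ± 0.27 in liver (0.0012). The thymus call was lost when cKO thymus library 3 (-1.36, adjusted p = 0.071) or the pair of control thymus libraries 1 and 2 (-1.31, 0.4) was left out, and with the thymus groups alone in the fit (-1.58, 0.095). Library depth lay between 18487047 and 43435619 reads in 10 libraries, and it was 3867359 reads in control liver library 3 and 3205400 in cKO liver library 2. All 8 markers of iNKT1 cells that were looked up (Tbx21, Il2rb, Klrb1c, Cd3e, Cd3g, Zbtb16, Ifng, Cxcr3) were measured, with a sum of 91449.7 to 148271 in every library.

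Some markers of other cells differed between groups. Of 6 endothelial markers 2 were measured, Pecam1 and Eng. Their sum was 71.8 to 671 in control and 0.923 to 88.8 in cKO libraries. Nearly all of it was Pecam1, as Eng was at 7.11 or less in every library. Of 6 neutrophil markers 1 was measured (Mmp9), at 3033 to 3585 in control liver and at most 2.55 in the other libraries. The endothelial and neutrophil lists thus rest on a single gene each, from which the presence of the cell type cannot be told. Of 10 hepatocyte markers 5 were measured (Alb, Apoa1, Apoa2, Ttr, Fgb), with a sum of 719 to 1709 in liver and 0 to 442 in thymus. Of 8 macrophage markers 4 were measured (Csf1r, Adgre1, Lyz2, C1qb), with a sum of 18.2 to 550 in control and 64 to 356 in cKO liver, and 0.084 to 16.5 in control and 0 to 114 in cKO thymus. Erythroid markers (5 of 7 measured) summed to 671 or less in every library. The list for immature thymocytes (5 of 7 measured: Rag1, Dntt, Cd8b1, Themis, Cd4) holds Cd4 and Themis, which mature T cells express too. Its sum was 1977 to 8436 in control and 2738 to 4163 in cKO thymus, and 10147 to 13718 in control and 5422 to 8289 in cKO liver, so it was highest outside the thymus. Rag1 was at 486 or less in thymus and at most 0.905 in liver, while Cd4 was at 985 to 7393 in control and 91.4 to 734 in cKO thymus and at 6440.2 to 7921 in control and 234 to 1657 in cKO liver. The part of such cells in the differences below was not tested. In RNA of sorted cells in bulk, fewer cells of a type and less RNA per cell cannot be told apart.

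Libraries also differed in how many transporter genes they missed. Members with 3 or fewer reads numbered 16 in control thymus library 1 and 20 in control thymus library 2, against 0 to 6 in each of the other 10 libraries. Of all genes with a mean of at least 100, 9.96% and 9.02% were that low in those 2 libraries and 0.97% to 4.24% in the others. In control thymus, 23 members (15.3%) had 3 or fewer reads in 1 library and a value of at least 100 in another, as did 12.6% of those genes. In cKO thymus 6 members (4%) had such a split, against 4.58% of those genes. In liver 5 members (3.33%) did in control and 4 (2.67%) in cKO libraries, against 3.66% and 2.19%. Slc7a5, the light chain of the large neutral amino acid carrier, was one of the 23, at 464, 2.34 and 308 in control thymus. The median SD of the members on the log2 scale was 1.38 in control and 0.89 in cKO thymus, and 0.66 in control and 0.55 in cKO liver. Over all genes with a mean of at least 100 it was 1.15, 0.75, 0.58 and 0.52 in the same order. Differences against control thymus therefore rest on the noisiest group, and the calls against it are given with and without its libraries.

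**Figure D1:**
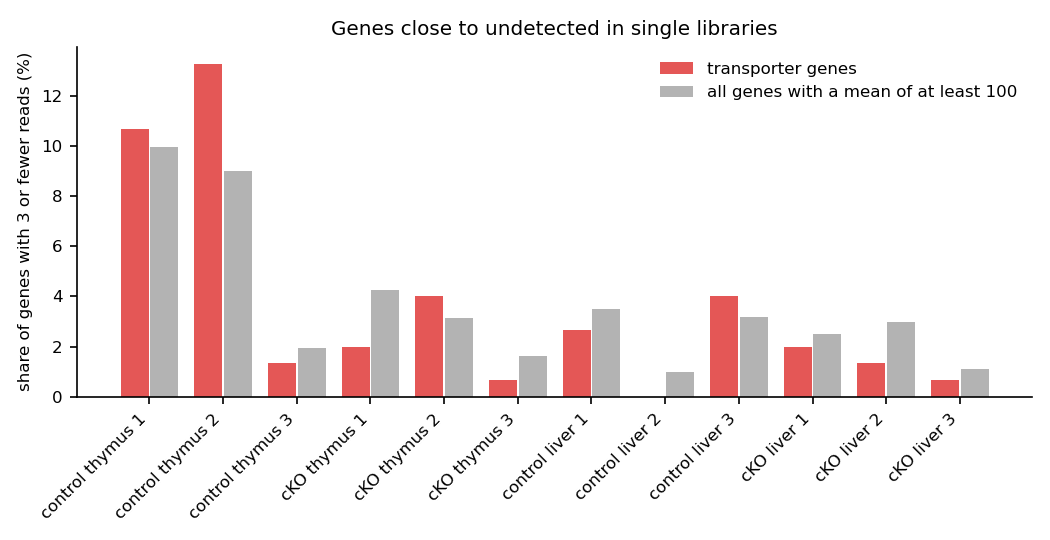
Share of genes with 3 or fewer reads in each of the 12 libraries (vertical axis, percent), for the 150 transporter genes (red) and all genes with a mean of at least 100 (grey). Control thymus libraries 1 and 2 stand above the others, with 10.7% and 13.3% of the transporter genes.

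By level per kilobase of exon, which is the scale on which genes can be compared, mitochondrial carriers held the largest share of the transporter signal. Slc25a5, which encodes the ADP/ATP carrier ANT2, led with a mean over the 12 libraries of 2613 units per kilobase. It was followed by Slc25a3, the mitochondrial phosphate carrier, with 1098, Slc1a5, a glutamine carrier, with 824, Slc28a2, a sodium-coupled nucleoside carrier, with 815, and Slc38a2, a carrier of small neutral amino acids, with 688. The 32 mitochondrial carriers made up 24.9% ± 3.07 of the summed per-kilobase signal of the members in control thymus (SD, n = 3) and 27.3% ± 2.94 in cKO thymus. In liver they made up 31.6% ± 1.79 in control and 34.3% ± 1.15 in cKO libraries. The ranges of the genotypes overlapped in thymus and did not in liver, where the lowest cKO library had 33.4% and the highest control library 33.3%. Lipid, vitamin and cofactor carriers had 4.31% ± 1.38 in control and 8.11% ± 2.57 in cKO thymus, and 5.5% ± 0.192 in control and 5.88% ± 0.976 in cKO liver. Amino acid carriers had between 11.5% and 14.3% on average in each group, inorganic ion carriers 10.6% to 14%, and nucleoside and nucleotide sugar carriers 11.7% to 14%.

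**Figure D2:**
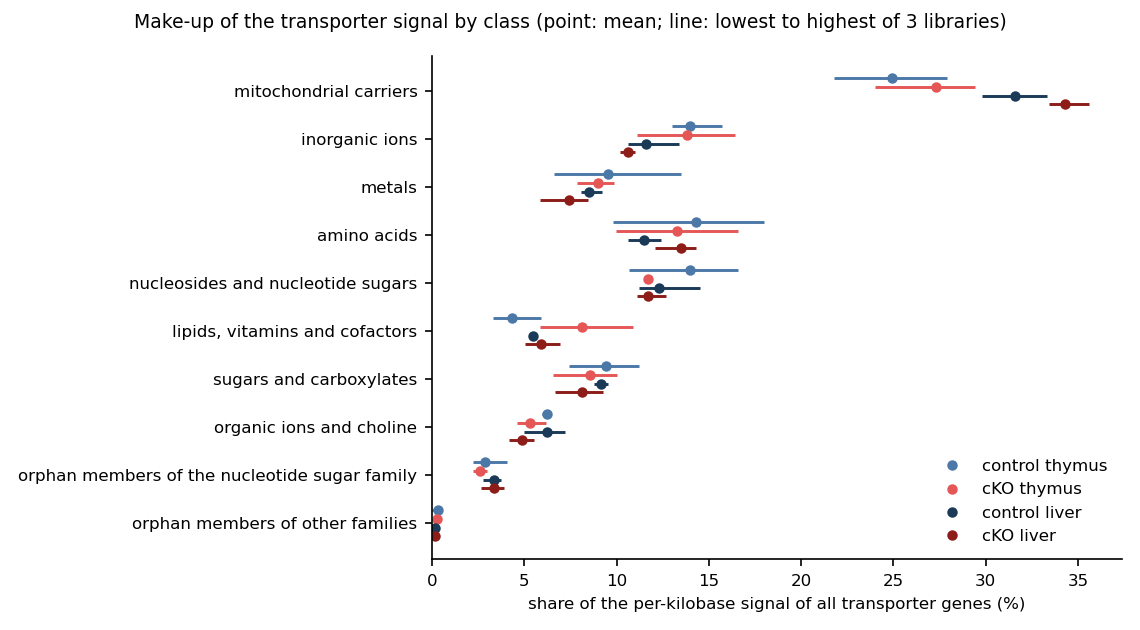
Share of the summed per-kilobase signal of the 150 transporter genes held by each substrate class (horizontal axis, percent), in the 4 groups, with points for means and lines from the lowest to the highest of 3 libraries. Mitochondrial carriers have the largest share in every group, from a mean of 24.9% in control thymus to 34.3% in cKO liver.

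The comparison of cKO with control cells asked which transporters change when Ets1 is deleted. In thymus 2 of 150 members passed an adjusted p of 0.05, 1 higher and 1 lower, against 0.636% of the 13058 genes tested (0.314% higher, 0.322% lower). In liver 1 of 150 passed, a higher one, where 0.505% of all genes passed and 0.314% were higher. The 7 members that passed over both tissues (4.67%) were 3 higher and 4 lower, against 1.18% and 1.1% of all genes. All genes include those below the limit of the members. Of the 9677 tested genes with a mean of at least 100, 142 were higher and 137 lower over both tissues. In the test of a difference between the tissues in the genotype effect, 0 of 150 members passed with limma, against 0.00766% of all genes, and 0 passed with edgeR or DESeq2 on recovered reads. At an unadjusted p under 0.05 that test had 2 members, Slc11a2 and Slc25a44, and 5.38% of all genes. The median log2 fold change of the members was 0.19 in thymus and -0.06 in liver, against 0.24 and 0.02 over all tested genes. Over the 9677 tested genes with a mean of at least 100 the medians were 0.16 and 0.01. The median of the members in thymus thus lay below that of all genes and above that of genes of like level. Rescaling the columns by TMM moved the thymus median of all genes to 0.00, so directions below are counted against the median of all genes. In thymus 71 members lay above and 79 below it, and in liver 63 above and 87 below.

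The thymus count depended on the control thymus libraries. Without control thymus library 3 it was 10, while the share of all genes called went from 0.636% to 4.2%, with Slc12a4, Slc25a10, Slc25a44, Slc27a4, Slc27a6 and Slc29a3 added among those higher in cKO cells and Slc35c1 and Slc44a2 among those lower. It was 1 when control thymus library 1 or 2 (0.331% of all genes each) or cKO thymus library 1 (0.225%) was left out. Omitting cKO thymus library 2 (0.332%) or 3 (0.163%), or the pair of control thymus libraries 1 and 2 (0.031%), gave 0. The liver count was 0 without any 1 of the liver libraries other than control liver library 1, with 0.148% to 0.265% of all genes, and 0 without the 2 shallow libraries (0.0715%). The count over both tissues was 13 without control thymus library 3 (4.23% of all genes) and 3 or 4 without cKO thymus library 3, control liver library 1 or 2, or cKO liver library 2 or 3 (1.31% to 1.57%). It was 3 without control thymus libraries 1 and 2 together (1.43%) and 2 without the 2 shallow libraries (0.739%). The counts of members moved in the same direction as the calls over all genes in these settings.

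A second view counts members whose libraries do not overlap between the groups, without a test. In thymus the genotypes had no overlap for 20 members (13.3%), 15 higher and 5 lower, against 14.5% of all tested genes. In liver they had none for 34 members (22.7%), 13 higher and 21 lower, against 18.6% of all tested genes. In both tissues and in the same direction they had none for 7 members (4.67%), against 3.52% of all tested genes. They included Slc12a4, Slc25a24, Slc25a4, Slc26a2 and Slc41a2, higher in cKO cells, and Slc4a7, lower. No member (0 of 150) was separated in both tissues in opposite directions, while 72 of the 13058 tested genes (0.551%) were.

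**Figure D3:**
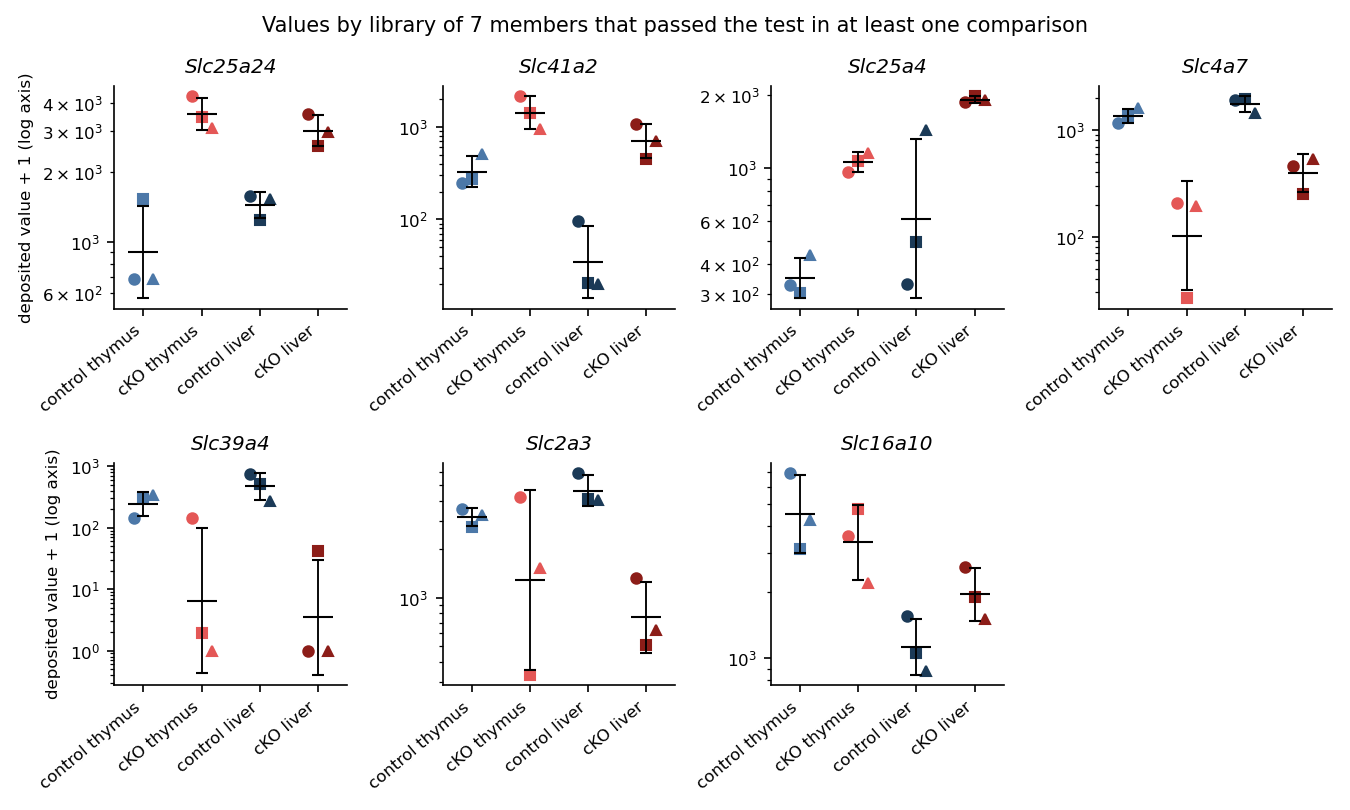
Deposited values plus 1 on a log axis (vertical) in the 12 libraries for 7 transporter genes that passed a test, with circle, square and triangle for libraries 1, 2 and 3 of a group and a black bar for the mean and SD of the log values. Slc25a24, Slc4a7, Slc41a2 and Slc25a4 show separate control and cKO libraries in both tissues, and Slc39a4 and Slc2a3 overlap in thymus.

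**Figure D4:**
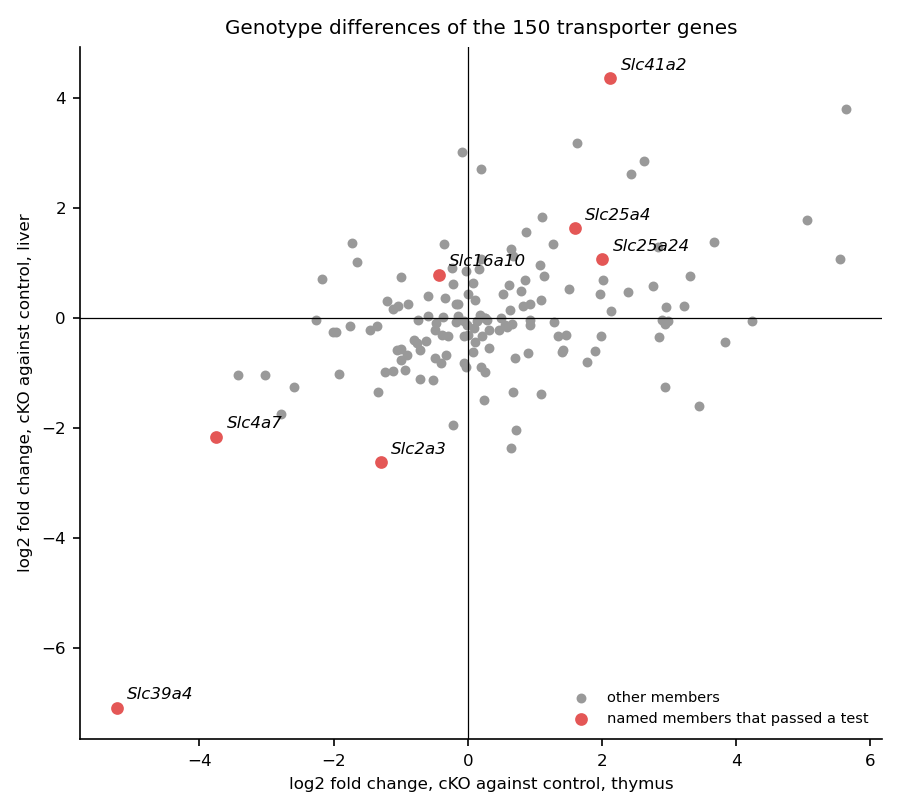
Log2 fold change of cKO against control cells in thymus (horizontal axis) and in liver (vertical axis) for the 150 transporter genes, with 7 that passed the test in at least 1 comparison named in red. Slc41a2, Slc25a4 and Slc25a24 lie at upper right and Slc4a7, Slc2a3 and Slc39a4 at lower left, while Slc16a10, which passed between tissues of control cells, is near the centre.

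Slc4a7, a carrier of inorganic ions, fell in cKO cells. The gene (ENSMUSG00000021733; chromosome 14, 14702279 to 14799940, plus strand, GRCm38) encodes NBCn1, which brings sodium and bicarbonate into the cell and so raises its pH. It was at 1170.4, 1363 and 1597 deposited units in control thymus and 207, 25.2 and 192 in cKO thymus. The values in liver were 1918, 1969.7 and 1454 in control and 464, 248 and 533 in cKO libraries. Every cKO library was below every control library of its tissue, and the lowest value, 25.2, came from 27 reads. The means were 1377 ± 214 (SD, n = 3) in control and 141 ± 101 in cKO thymus, and 1781 ± 284 in control and 415 ± 149 in cKO liver. The change on the log2 scale was -2.95 ± 0.55 (SE) over both tissues (limma adjusted p = 0.0061), -3.75 ± 0.77 in thymus (0.033) and -2.16 ± 0.77 in liver (0.38). The difference between the tissues was 1.59 ± 1.09 (adjusted p = 0.94). Over both tissues the call held in 20 of 21 alternatives and was lost without the 2 shallow libraries (adjusted p = 0.058). In thymus it was lost in 7 of 15, including the omission of control library 1 (0.055) or 2 (0.065) or of cKO library 2 (0.078) or 3 (0.055), and with edgeR (0.065). It was also lost there with the thymus groups alone in the fit (0.38), while the liver difference passed with the liver groups alone.

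Slc12a7 and Slc12a4, genes of potassium chloride cotransporters, did not pass. Slc12a7, which encodes KCC4, averaged 1528 ± 656 in control and 1339 ± 673 in cKO thymus, and 1014 ± 181 in control and 1723 ± 1044 in cKO liver. Slc12a4, which encodes KCC1, was at 0.0212, 3.5 and 8.83 in control thymus (0, 3 and 7 reads) and 382, 38.3 and 110 in cKO thymus. Values in liver were 116, 92.7 and 206 in control and 1627, 273 and 211 in cKO libraries. It was separated in both tissues, with log2 fold changes of 5.06 ± 1.53 in thymus (adjusted p = 0.14) and 1.79 ± 1.53 in liver (1), and it passed in thymus without control thymus library 3. Its exons overlap Gm16156 on the other strand.

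Slc9a9, a sodium proton exchanger of endosomes, was at 3841, 4073 and 3695 in control liver and 1398, 2079.8 and 1945 in cKO liver, which do not overlap. In thymus its values overlapped, at 4456, 5212 and 6979 in control and 1912, 5953 and 4822 in cKO libraries. On the log2 scale the difference was -1.12 ± 0.39 in liver (limma adjusted p = 0.35) and -0.52 ± 0.39 in thymus (0.6). The liver difference passed when only the liver groups were fitted. Slc26a2, a sulfate carrier that was separated in both tissues, had log2 fold changes of 0.85 ± 0.40 in thymus (0.37) and 0.70 ± 0.40 in liver (0.86). Slc20a1, the phosphate carrier PiT1, had overlapping thymus values. Of the 20 ion carriers 9 lay above and 11 below the median of all genes in thymus, and 10 above and 10 below in liver. Other ion carriers were Slc4a2, Slc4a8, Slc8b1, Slc9a7, Slc9a8, Slc12a2, Slc12a9, Slc20a2, Slc24a1, Slc26a10 and Slc26a11, with means over the 12 libraries of 189 to 2181.

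Among metal carriers, Slc41a2 rose and Slc39a4 fell. Slc41a2 (ENSMUSG00000034591; chromosome 10, 83230848 to 83337882, minus strand), a magnesium transporter, was at 248, 276 and 511 in control thymus and 2154, 1411 and 958 in cKO thymus. For liver the values were 95.7, 19.7 and 19.2 in control and 1082, 454 and 708 in cKO libraries. Every cKO library lay above every control library of its tissue, and the lowest control liver values came from 23 and 3 reads. The means were 345 ± 145 and 1508 ± 604 in control and cKO thymus and 44.9 ± 44 and 748 ± 316 in control and cKO liver. The fitted log2 fold change was 3.24 ± 0.62 over both tissues (limma adjusted p = 0.0074), 4.36 ± 0.88 in liver (0.027) and 2.12 ± 0.88 in thymus (0.3). The difference between the tissues was 2.24 ± 1.24 (0.93). The call over both tissues held in 21 of 21 alternatives, with a highest adjusted p of 0.042. The liver call was lost in 7 of 15, namely without control liver library 2 (0.13) or 3 (0.11), without cKO liver library 1 (0.2), 2 (0.095) or 3 (0.13), without the 2 shallow libraries (0.28) and with edgeR (0.061).

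Control liver had the lowest Slc41a2 and control thymus was higher, a log2 difference of -3.26 ± 0.88 (limma adjusted p = 0.11). In cKO cells the tissues overlapped, with a log2 difference of -1.02 ± 0.88 (adjusted p = 0.88). The related magnesium carrier gene Slc41a1 averaged 619 in control and 589 in cKO thymus, and 837 in control and 961 in cKO liver, with log2 fold changes of -0.14 in thymus and 0.03 in liver.

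Slc39a4 (ENSMUSG00000063354; chromosome 15, 76612383 to 76617384, minus strand) encodes ZIP4, a zinc importer of the plasma membrane. It was at 144, 301 and 335 in control thymus and 144, 0.923 and 0 in cKO thymus. Liver cells gave 750, 519 and 273 in control and 0, 41.3 and 0 in cKO libraries. The liver groups did not overlap, while cKO thymus library 1 was as high as control thymus library 1. The cKO liver values came from 0, 6 and 0 reads and the 2 low cKO thymus values from 1 and 0 reads. The log2 fold change over both tissues was -6.16 ± 1.42 (limma adjusted p = 0.024), and it was -7.09 ± 2.0 in liver (0.14) and -5.23 ± 2.0 in thymus (0.26). Some libraries had no read, and the size over both tissues depended on the method: it was -4.06 with a pseudocount of 10, -4.02 with edgeR and -3.94 with DESeq2. The call was lost in 9 of 21 alternatives, namely without cKO thymus library 2 (0.055) or 3 (0.066), without control liver library 1 (0.073), 2 (0.07) or 3 (0.054), without cKO liver library 1 (0.071) or 3 (0.071), without control thymus libraries 1 and 2 together (0.087) and with edgeR (0.24). The liver difference of Slc39a4 passed with only the liver groups in the fit.

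The other metal carriers gave no call between genotypes. Slc11a2, the iron carrier DMT1 and the first metal carrier by deposited value, was at 2149, 2342 and 2612 in control thymus and 4119, 5512 and 2520.0 in cKO thymus. Liver values were 3218, 1982 and 1243 in control and 820, 1234 and 1710.0 in cKO libraries. The estimates had opposite signs, 0.71 ± 0.44 in thymus and -0.73 ± 0.44 in liver, and the difference between them was -1.44 ± 0.63 (unadjusted p = 0.034, limma adjusted p = 0.91). Slc39a6, the zinc carrier ZIP6, ranged from 804 to 7466 in control thymus, and its log2 fold changes were -0.91 ± 0.61 in thymus (0.55) and -0.67 ± 0.61 in liver (1). Of the 20 metal carriers 11 lay above and 9 below the median of all genes in thymus, and 7 above and 13 below in liver. The other 16 were Slc30a1, Slc30a5, Slc30a6, Slc30a7, Slc30a9, Slc31a1, Slc31a2, Slc39a1, Slc39a3, Slc39a8, Slc39a9, Slc39a10, Slc39a11, Slc39a13, Slc39a14 and Slc41a1.

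Among mitochondrial carriers, Slc25a24 and Slc25a4 rose. Slc25a24 (ENSMUSG00000040322; chromosome 3, 109123149 to 109168457, plus strand) encodes a carrier that exchanges ATP-Mg for phosphate and is switched on by calcium. It was at 688, 1522 and 686 in control thymus and 4265, 3450.1 and 3101 in cKO thymus. The values in liver were 1574, 1236 and 1533 in control and 3569, 2605 and 2975 in cKO libraries. No cKO library fell below a control library of either tissue. The means were 965 ± 482 and 3605 ± 598 in control and cKO thymus and 1448 ± 184 and 3049.6 ± 486 in control and cKO liver. The log2 difference was 1.53 ± 0.29 over both tissues (limma adjusted p = 0.0073), 2.0 ± 0.41 in thymus (0.033) and 1.07 ± 0.41 in liver (0.46). The difference between the tissues was -0.92 ± 0.59 (0.94). The call over both tissues held in 20 of 21 alternatives and was lost without the 2 shallow libraries (0.051). The thymus call was lost in 8 of 15, including without control thymus library 1 (0.07), without cKO thymus library 1 (0.15), 2 (0.086) or 3 (0.085), with TMM (0.059) and with edgeR (0.054).

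Slc25a4 (ENSMUSG00000031633; chromosome 8, 46206797 to 46211284, minus strand) encodes ANT1, an ADP/ATP carrier best known from heart and muscle. It was at 326, 302 and 434 in control thymus and 954, 1066 and 1148 in cKO thymus. The liver libraries gave 329, 493 and 1429 in control and 1856, 1971 and 1899 in cKO libraries. The groups did not overlap in either tissue, although control liver library 3, one of the 2 shallow libraries, lay well above the other 2. On the log2 scale the difference was 1.61 ± 0.42 over both tissues, which passed by a small margin (limma adjusted p = 0.05 after rounding), and 1.59 ± 0.59 in thymus (0.25) and 1.63 ± 0.59 in liver (0.39) did not. That call was lost in 17 of 21 alternatives, with a highest adjusted p of 0.14. Among these were the omissions of any 1 library other than control thymus library 3 and control liver library 3, and both rescalings of the columns.

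Slc25a5, the more abundant ADP/ATP carrier gene, was at 4389, 2261 and 5128 in control thymus and 2052, 3558 and 3120.5 in cKO thymus. Values in liver were 6487, 4855 and 5832 in control and 5429, 4091 and 4418 in cKO libraries. The values of the genotypes overlapped in both tissues, with log2 fold changes of -0.39 ± 0.35 in thymus (limma adjusted p = 0.67) and -0.30 ± 0.35 in liver (1). On the per-kilobase scale Slc25a4 made up 6.36% ± 1.92 of the sum of Slc25a4 and Slc25a5 in control thymus and 20.8% ± 3.61 in cKO thymus. In liver it made up 8.23% ± 5.77 in control and 22.5% ± 3 in cKO libraries. This pair was chosen after its values were seen, and how reads shared by these close copies were counted is not given.

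The remaining mitochondrial carriers gave no call. Slc25a3, the phosphate carrier, averaged 7692 ± 2192 in control and 5345 ± 397 in cKO thymus, and 5905 ± 1547 in control and 5440.0 ± 773 in cKO liver. Slc25a51, a carrier of NAD, had 1112 ± 711, 2146 ± 585, 855 ± 257 and 1446 ± 405 in the same order (0.95 ± 0.39 on the log2 scale over both tissues, limma adjusted p = 0.27). Slc25a44, a carrier of branched-chain amino acids, was at 28.1, 104 and 369 in control thymus and 585, 771 and 1178 in cKO thymus, which do not overlap, and passed in thymus without control thymus library 3. Its liver values overlapped, at 714, 397 and 1253 in control and 1292, 494 and 836 in cKO libraries. Slc25a30, also a mitochondrial carrier, had the widest range of group means in the class. It had no read in control thymus libraries 1 and 2, a value of 184 in the third, and 152 to 520 in control liver. Of the 32 mitochondrial carriers 21 lay above and 11 below the median of all genes in thymus, and 16 above and 16 below in liver, with class medians of 0.64 and -0.00 on the log2 scale. Others of the class were Slc25a1, Slc25a10, Slc25a11, Slc25a12, Slc25a14, Slc25a15, Slc25a16, Slc25a17, Slc25a20, Slc25a22, Slc25a23, Slc25a25, Slc25a28, Slc25a32, Slc25a35, Slc25a36, Slc25a37, Slc25a38, Slc25a39, Slc25a40, Slc25a42, Slc25a45, Slc25a46 and Slc25a53, with means over the 12 libraries of 101 to 2021. The medians of all genes were 0.24 and 0.02. Of the 23 members with a split in control thymus, 8 were mitochondrial carriers, and the part of those libraries in the thymus median was not tested.

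**Figure D5:**
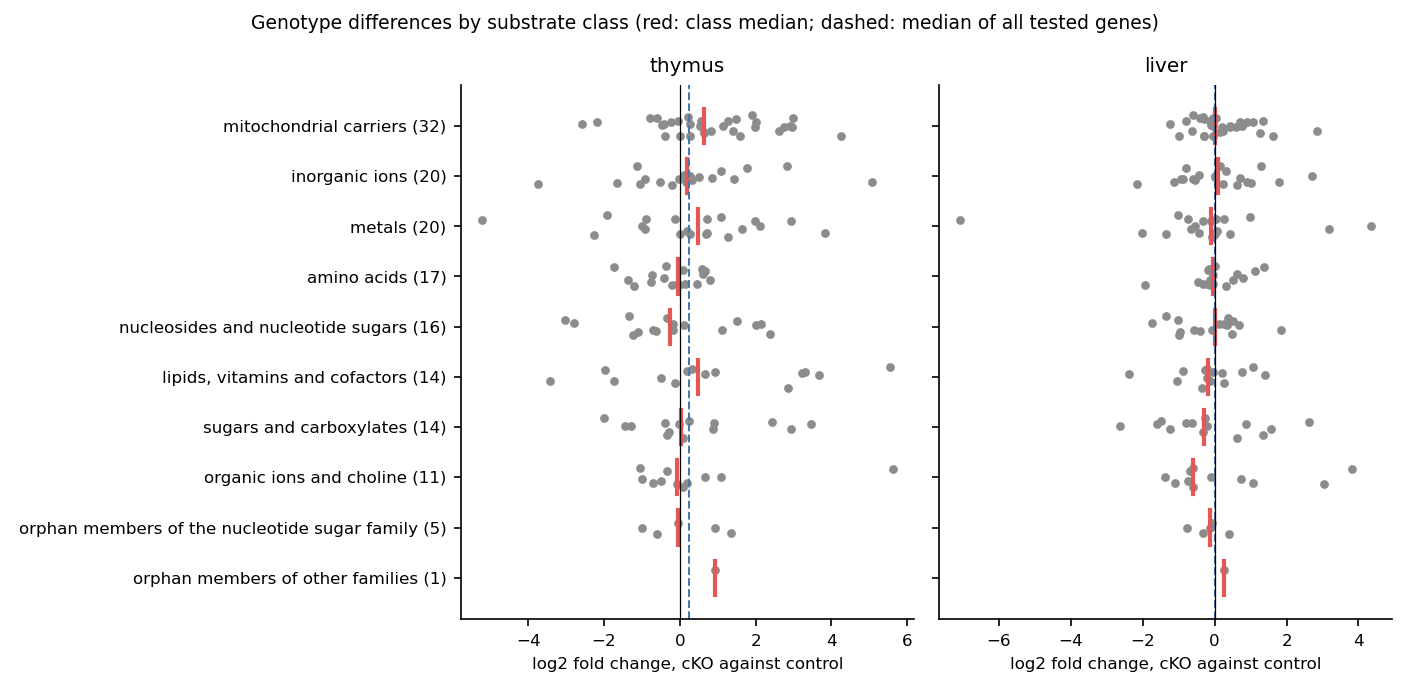
Log2 fold change of cKO against control cells (horizontal axes) for each transporter gene by substrate class, in thymus (left) and liver (right), with the class median in red and the median of all 13058 tested genes dashed. The medians of mitochondrial carriers are 0.64 in thymus and -0.00 in liver, and in liver the median size of the difference runs from 0.30 for carriers of lipids, vitamins and cofactors to 1.05 for carriers of sugars and carboxylates among the 8 classes with a substrate, against 0.64 over all genes.

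Among carriers of sugars and carboxylates, Slc2a3 fell over both tissues. Slc2a3 (ENSMUSG00000003153; chromosome 6, 122727809 to 122801640, minus strand) was at 3548, 2735 and 3254 in control thymus and 4227, 330 and 1524 in cKO thymus. For liver the values were 5964, 4078 and 4033 in control and 1324, 508 and 631 in cKO libraries. The liver groups were far apart, while cKO thymus library 1 was the highest of the 6 thymus libraries. The fitted log2 fold change was -1.96 ± 0.46 over both tissues (limma adjusted p = 0.028), -2.62 ± 0.65 in liver (0.076) and -1.30 ± 0.65 in thymus (0.39). The difference between the tissues was -1.32 ± 0.92 (0.94). The call over both tissues was lost in 9 of 21 alternatives, namely without cKO thymus library 3 (0.054), without control liver library 1 (0.09), 2 (0.064) or 3 (0.06), without cKO liver library 2 (0.082) or 3 (0.072), without control thymus libraries 1 and 2 together (0.098), without the 2 shallow libraries (0.14) and with edgeR (0.077). The liver difference alone passed when the fit held only the liver libraries.

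Slc2a1, which encodes GLUT1, did not pass. It was at 1094, 1329 and 976 in control liver and 3335, 1519.6 and 1669 in cKO liver, which do not overlap (log2 fold change 0.86 ± 0.54, limma adjusted p = 0.9). In thymus it was at 3815, 715 and 2006 in control and 1434, 2232 and 1649.8 in cKO libraries. Per kilobase, Slc2a3 made up 66.3% ± 6.39 of the sum of Slc2a3 and Slc2a1 in control liver and 15.2% ± 1.13 in cKO liver. In thymus it made up 46.7% ± 17.1 in control and 32.1% ± 26.1 in cKO libraries, where the single libraries had 58.8%, 6.67% and 30.9%. In liver the libraries did not overlap, with 59.8% to 72.5% in control and 13.9% to 16.1% in cKO cells, and in thymus they did. This pair, too, was chosen after its values were seen.

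Slc16a6, a monocarboxylate carrier and the first of its class by deposited value, averaged 3219 ± 270 in control and 2732 ± 869 in cKO thymus, and 3066 ± 920 in control and 2392 ± 371 in cKO liver. The log2 differences were -0.29 ± 0.36 in thymus and -0.33 ± 0.36 in liver. The lactate carrier genes Slc16a1 and Slc16a3 had no call, with means over the 12 libraries of 562 and 170. Slc45a4 had the widest range of group means in the class, at 6.75, 0.0274 and 222 in control thymus and 649, 401 and 526 in control liver. Of the 14 members 6 lay above and 8 below the median of all genes in thymus, and 5 above and 9 below in liver. The other 8 were Slc2a8, Slc2a9, Slc16a4, Slc37a1, Slc37a2, Slc37a3, Slc37a4 and Slc50a1.

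Carriers of amino acids gave no call between genotypes. Averaged over both tissues, their differences between genotypes were the smallest of any class. The median size was 0.20 on the log2 scale, against 0.62 over all genes and 0.52 over those with a mean of at least 100. An average over tissues can cancel differences of opposite sign. Within tissues the median size was 0.58 in thymus and 0.31 in liver, where carriers of lipids, vitamins and cofactors had a smaller one (0.30). Slc38a2, which encodes SNAT2, averaged 4138 ± 1499.6 in control and 7087 ± 2218 in cKO thymus, and 5355 ± 1436 in control and 7736 ± 2874 in cKO liver. On the log2 scale the difference was 0.65 ± 0.25 over both tissues (limma adjusted p = 0.24), and the libraries of the genotypes overlapped in each tissue. Slc38a1, which encodes SNAT1, had 6842 ± 1938, 6509.9 ± 1543, 5651 ± 722 and 4472 ± 325 in the same order. Slc1a5, the glutamine carrier, was at 3708, 2887 and 2750.2 in control liver and 3091, 3298 and 2932 in cKO liver. The log2 difference in liver was 0.01 ± 0.44 with a 95% confidence interval of -0.91 to 0.92, so differences of either sign lie within it. Slc3a2, the heavy chain of several amino acid carriers, had 1830.4 ± 1731 and 1542 ± 593 in control and cKO thymus and 1879.7 ± 289 and 1698 ± 521 in control and cKO liver.

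Slc7a5, which pairs with Slc3a2, was at 464, 2.34 and 308 in control thymus and 118, 149 and 88.4 in cKO thymus. Control libraries 1 and 3 were above every cKO library and control library 2 below them all, and the means were 258 ± 235 and 118 ± 30.1. Liver values were 787, 232 and 466 in control and 212, 645 and 432 in cKO libraries. On the log2 scale, where the low control library weighs more, the thymus difference had the opposite sign to that of the means, 0.58 ± 1.45 (limma adjusted p = 0.91), and it was -0.17 ± 1.45 in liver (1). Slc43a3, a gene of an amino acid carrier family whose product is known for carrying purine nucleobases, had the widest range of group means in the class. It was at 5385, 87.9 and 21.4 in control thymus and 1045, 0.923 and 145 in cKO thymus, so library 1 of each thymus group held most of its signal. Liver cells gave 498, 300 and 679 in control and 1063, 1172 and 1394 in cKO libraries, which do not overlap (log2 fold change 1.36 ± 1.84, limma adjusted p = 1). Of the 17 amino acid carriers 5 lay above and 12 below the median of all genes in thymus, and 6 above and 11 below in liver. Slc16a10, also of this class, passed between tissues of control cells and is described below. The other 10 were Slc7a1, Slc7a6, Slc15a2, Slc15a4, Slc36a1, Slc36a4, Slc38a6, Slc38a9, Slc38a10 and Slc43a2.

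Nucleoside and nucleotide sugar carriers gave no call. Slc28a2, which takes up nucleosides with sodium, was at 3436, 6779.7 and 1939 in control thymus and 3146, 1755 and 2229.6 in cKO thymus. Liver values were 4654, 3865 and 3979 in control and 3007, 3372 and 3010.2 in cKO libraries, which do not overlap. In thymus the log2 difference was -0.62 ± 0.40 (limma adjusted p = 0.53) and -0.41 ± 0.40 in liver (1). Slc29a1, an equilibrative nucleoside carrier, had no read in cKO thymus library 1 and values of 55.1 and 314 in the other 2, against 341, 606 and 45.2 in control thymus. In liver Slc29a1 was at 152, 218 and 254 in control and 64.5, 101 and 150 in cKO libraries, which do not overlap.

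In the Golgi and endoplasmic reticulum, nucleotide sugar carriers bring in the building blocks of glycans. Slc35a3, which carries UDP-N-acetylglucosamine, averaged 2637 ± 634 in control and 2917 ± 1173 in cKO thymus, and 1962 ± 378 in control and 2504 ± 751 in cKO liver. Slc35d1, described after its values were seen, was at 516, 523 and 322 in control liver and 2027, 1526 and 1283 in cKO liver, which do not overlap. In thymus it was at 489, 1340.2 and 1104 in control and 3839, 832 and 2255 in cKO libraries, which do. Over both tissues its log2 fold change was 1.47 ± 0.42 (limma adjusted p = 0.081). Its liver difference passed with only the liver groups in the fit. Slc35c1, which carries GDP-fucose and was likewise described after its values were seen, had 5239, 4001 and 728 in control thymus and 1036, 793 and 1432 in cKO thymus, and its thymus difference passed without control thymus library 3. Of the 16 members 5 lay above and 11 below the median of all genes in thymus, and 8 above and 8 below in liver. The other 11 were Slc17a9, Slc29a3, Slc35a1, Slc35a2, Slc35a4, Slc35a5, Slc35b1, Slc35b2, Slc35b3, Slc35b4 and Slc35d2.

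Lipid, vitamin and cofactor carriers had their largest values in cKO thymus through Slc27a6, a fatty acid transport protein. It was at 832, 34.7 and 872 in control thymus and 4155, 1699.8 and 3579 in cKO thymus, which do not overlap. The values in liver were 268, 820 and 782 in control and 1334, 761 and 823 in cKO libraries, which do. In thymus this was a log2 difference of 3.31 ± 0.93 (limma adjusted p = 0.12) and 0.76 ± 0.93 in liver (1), and the difference between them was -2.55 ± 1.31 (0.93). Slc27a4, of the same family, was at 0.0212, 1.19 and 66.5 in control thymus, from 0, 1 and 53 reads, and at 251, 190 and 316 in cKO thymus, with a log2 fold change of 5.54 ± 1.66 (0.14). Slc23a2, a vitamin C carrier, averaged 997 ± 686 and 986 ± 123 in control and cKO thymus and 2005 ± 1403 and 974 ± 313 in control and cKO liver. Of the 14 members 8 lay above and 6 below the median of all genes in thymus, and 5 above and 9 below in liver. The other 11 were Slc5a6, Slc10a1, Slc10a3, Slc19a1, Slc19a2, Slc27a1, Slc33a1, Slc46a3, Slc48a1, Slc52a2 and Slc52a3.

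Among carriers of organic ions and choline, Slc44a2, a choline transporter-like gene and the first of the class by deposited value, was at 5937, 5134 and 2755 in control thymus and 2329, 1682 and 2385 in cKO thymus. These did not overlap, but the log2 fold change of -1.06 ± 0.37 did not pass (limma adjusted p = 0.22). The liver libraries gave 4253, 5653 and 5129.7 in control and 4945, 2639 and 2762 in cKO libraries, which overlap through cKO liver library 1. Slc6a6, the taurine carrier, was at 4752, 3348 and 3210.1 in control liver and 2376, 2333 and 2235 in cKO liver, with a log2 fold change of -0.68 ± 0.40 (0.88), while its thymus values overlapped. Slc6a8, the creatine carrier, had no read in control thymus libraries 1 and 2 and in control liver library 1. It was at 35.9, 121 and 767 in cKO thymus and 239, 199 and 153 in cKO liver, with a log2 fold change of 4.72 ± 1.45 over both tissues (0.11). Of the 11 members 3 lay above and 8 below the median of all genes in thymus, and 4 above and 7 below in liver. Others were Slc5a3, Slc14a1, Slc17a5, Slc18a2, Slc22a5, Slc22a15 and Slc44a1.

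The 6 orphan members, with no substrate assigned here, gave no call. Slc35e1 and Slc35e2 had log2 fold changes of -0.60 ± 0.56 and -0.05 ± 0.61 in thymus and 0.40 ± 0.56 and -0.06 ± 0.61 in liver. Slc35f2 was at 39.3, 149 and 359 in control thymus and 208, 520 and 325 in cKO thymus, and Slc10a7 was at 1789, 12.8 and 1498 in control thymus against 526, 1250.3 and 386 in cKO thymus. Each of these pairs of groups overlapped. The other 2 were Slc35c2 and Slc35g1.

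The tissues were compared within each genotype, as liver against thymus. In control cells 1 of 150 members passed, against 0.605% of all genes. It was Slc16a10 (ENSMUSG00000019838; chromosome 10, 40033532 to 40142258, minus strand), which encodes TAT1, a carrier of aromatic amino acids. Slc16a10 was at 6958, 3119.9 and 4244 in control thymus and 1556, 1058 and 873 in control liver. All thymus libraries lay above all liver libraries, with means of 4774 ± 1973 and 1163 ± 353 and a log2 difference of -2.0 ± 0.43 (limma adjusted p = 0.035). In cKO cells it was at 3607, 4753 and 2202 in thymus and 2608, 1893 and 1504 in liver, which overlap, with a log2 difference of -0.78 ± 0.43 (adjusted p = 0.74). The difference between these tissue effects was 1.22 ± 0.60 (adjusted p = 0.93). The call in control cells was lost in 7 of 16 alternatives, among them without control thymus library 1 (0.11), without control liver library 1 (0.057), 2 (0.16) or 3 (0.2), without control thymus libraries 1 and 2 together (0.25) and without the 2 shallow libraries (0.3).

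In cKO cells 0 of 150 members passed between the tissues with limma, against 0.222% of all genes. At an unadjusted p under 0.05 there were 8 members and 7.6% of all genes, edgeR on recovered reads called 0 and DESeq2 called 2, Slc11a2 and Slc25a28. Slc11a2 was lower in every cKO liver library than in every cKO thymus library, with a log2 difference of -1.68 ± 0.44 (limma adjusted p = 0.15). The libraries of the tissues did not overlap for 15 members in control cells (10%), against 15.4% of all genes, and for 22 in cKO cells (14.7%), against 16.1%.

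The tissue difference in control cells uses the same control thymus libraries as the thymus comparison of genotypes, so the values of both are not independent. Without control thymus library 3, 10 members passed between tissues in control cells, 9 of them higher in liver, and 3.06% of all genes passed there, against 0.605% in the full set, where 0 members and 0.337% of all genes were higher in liver. In the full set 13 of the 14 lipid, vitamin and cofactor carriers lay above the median of all genes (0.28) in that comparison, with a class median of 1.05, and 19 of 32 mitochondrial carriers did, with a class median of 0.62. Of the organic ion and choline carriers 2 of 11 lay above it, and of the nucleoside and nucleotide sugar carriers 3 of 16. The median over tested genes with a mean of at least 100 was 0.16. Of the 14 lipid, vitamin and cofactor carriers, 0 passed and 0 had tissues whose libraries did not overlap. Among them, Slc5a6, Slc19a2 and Slc27a1 had 3 or fewer reads in a control thymus library and at least 100 units in another.

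Genes that partner or regulate transporters were looked at as a list of 80, of which 72 were tested. It holds chaperones of carriers, pumps, iron and zinc handling genes, and the nutrient sensing genes around mTOR, Myc and Hif1a. In thymus 1 was higher and 0 were lower in cKO cells, against 0.636% of all genes called. In liver 0 passed (0.505% of all genes), and over both tissues 1 was higher and 2 were lower (2.27% of all genes). Emb, which encodes embigin, a chaperone of monocarboxylate carriers, was at 0.0213, 10.4 and 57.7 in control thymus and 364, 330 and 653 in cKO thymus. Values in liver were 308, 1272 and 1358 in control and 3149.9, 3018 and 3654 in cKO libraries, and the genotypes did not overlap in either tissue. On the log2 scale the difference was 3.81 ± 0.82 over both tissues (limma adjusted p = 0.016), 5.60 ± 1.16 in thymus (0.033) and 2.01 ± 1.16 in liver (0.86). Without control thymus libraries 1 and 2 the thymus difference of Emb was 2.87 (adjusted p = 0.4), and the call was also lost without any 1 cKO thymus library (0.078 to 0.13), with the thymus groups alone (0.5) and with edgeR (0.094). Over both tissues it was lost in 6 of 21 alternatives, with a highest adjusted p of 0.11. Bsg, the gene of the other chaperone of monocarboxylate carriers, did not pass in any of the 6 comparisons.

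Hif1a, the oxygen-regulated factor that drives glucose transporter genes, fell over both tissues. It was at 4185, 3092 and 4273 (control) and 2721, 1598 and 1344 (cKO) in thymus, and at 3901, 3719 and 3482 in control and 1222, 2239 and 1668 in cKO liver. The fitted log2 fold change was -1.12 ± 0.27 over both tissues (limma adjusted p = 0.032), with -1.08 ± 0.38 in thymus (0.22) and -1.16 ± 0.38 in liver (0.28). The call was lost in 9 of 21 alternatives, with a highest adjusted p of 0.11. Abcb1a, a drug efflux pump gene, fell as well, with -2.27 ± 0.42 over both tissues (0.006), and the call was lost in 1 of 21 alternatives, without the 2 shallow libraries (0.051). Abca1, a cholesterol exporter, differed between tissues and not detectably between genotypes. It averaged 3398 ± 1135 in control thymus and 539 ± 232 in control liver, a log2 difference of -2.71 ± 0.55 (0.024), and 4165 ± 803 and 440 ± 275 in cKO cells, a difference of -3.39 ± 0.55 (0.016). The call in control cells was lost in 8 of 16 alternatives, among them without control thymus library 1 (0.075) or 2 (0.056) and without both (-2.11, 0.43), and that in cKO cells in 5 of 15. Emb was also higher in control liver than in control thymus (6.52 ± 1.16, adjusted p = 0.0089), a difference that was 3.79 without control thymus libraries 1 and 2 (0.07). The genes of the list with the highest values, Wnk1, Ucp2 and Nedd4, had log2 fold changes over both tissues of 0.06 ± 0.14, -0.02 ± 0.16 and -0.34 ± 0.19 and did not pass.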

How the data were processed

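RNA was measured in 12 libraries of sorted iNKT1 cells, made with an RNeasy extraction and a Nugen Ovation Ultralow library kit per the labels' protocols. The deposited table holds 1 signal value per gene and library that the authors had adjusted for library size. The submitters' processing notes name mm10, Trimmomatic 0.33, TopHat2 2.1.0, STAR, HTSeq 0.6.1 and DESeq2 without a role or order, and nothing used here states if counting used strand. The steps between low values showed what 1 read was worth (0.6149 to 6.663 units), and 95.4% of the values came within 0.1 of a whole read after a negative-binomial quantile adjustment, inferred from the values with a dispersion of 1.44, was undone. By library this share was 79% in cKO liver library 1, the deepest, and 91.4% to 99.6% in the others. Recovered totals were 3205400 to 43435619 reads per library, and precision is lower in the 2 shallow libraries.

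Values were tested as log2(value + 1) with limma 3.58.1 (R 4.3.3), with 4 group means, a mean-variance trend and 6 contrasts: the genotype effect (cKO minus control) per tissue, its average and its difference between tissues, and the tissue effect (liver minus thymus) per genotype. A gene needed 3 or more libraries with a value of 10 or more, which 13058 genes met and 946 did not, and p-values were adjusted by Benjamini-Hochberg over all of them with a threshold of 0.05. Each gene had a single estimate of spread shared by the 4 groups. The SE of its genotype difference is therefore the same in thymus and liver, although the thymus groups varied more. The text says rose or fell of genes past that threshold. A count model was not used for the main result because the values are not counts. Fold changes are on the log2(value + 1) scale, which understates the change of a gene that is low in every group, while libraries without a read can make it larger than in a count model. Values of 13363 of the 14004 genes (95.4%) were matched to GENCODE vM21 (GRCm38) for symbols, positions and exon length. Exons of 44 members overlap other genes. The per-kilobase level is the deposited value divided by the union of exons.

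The members, substrate classes and lists were chosen with earlier results of these data known. Named genes are Ets1, all called members, in each class the 2 with the highest mean and the 1 with the widest range of group means, the 2 on each side of the limit, and of the partner list its called genes and 3 others by highest mean; some members that this rule names are not reported here. The described members Slc1a5, Slc2a1, Slc3a2, Slc7a5, Slc12a7, Slc16a1, Slc16a3, Slc20a1, Slc25a44, Slc25a51, Slc26a2, Slc35c1, Slc35d1 and Slc41a1, and Bsg, lie outside that rule and were chosen after their values were seen. Alternatives were a pseudocount of 10, no filter, TMM or median-of-ratios rescaling, fits of the compared groups alone, a replicate block, omission of each library, of control thymus libraries 1 and 2 and of the 2 shallow libraries, and edgeR 4.0.16 and DESeq2 1.42.0 on recovered reads. The fits were tested on simulated data with changes of 2, 4 and 16-fold in a tissue. In thymus 0%, 10.9% and 45.2% of these were recovered, and in liver 0%, 13.6% and 42.2%. Of 40 calls in thymus 5 were of unchanged genes, and of 44 in liver 8 were. The simulation gave each gene the same spread in all groups, while the real thymus groups varied more. Its rates thus do not show how thymus and liver differ. A gene without a call can therefore still differ, and some calls can be false.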

Additional observations from a re-analysis of the deposited data

How the results depend on the processing

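None of the named calls of members, of Ets1 or of partner genes changed direction under any alternative run; those of the partner genes were added after seeing the data. Percentages are the share of all genes called in the same setting. The number of members called in thymus (2) was 1 with TMM rescaling (0.828%), 0 with the thymus groups alone (0.0269%), 0 without control thymus libraries 1 and 2 (0.031%), 0 with edgeR (0.391%) and 6 with DESeq2 on recovered reads (4.74%), and 0 to 10 when 1 library was left out (0.163% to 4.2%). In liver (1) it was 6 with the liver groups alone (2.45%), 2 with the replicate block (0.544%), 0 without the 2 shallow libraries (0.0715%), 0 with edgeR (0.299%) and 3 with DESeq2 (2.08%), and 0 to 1 when 1 library was left out (0.148% to 0.271%). Over both tissues (7) it was 3 without control thymus libraries 1 and 2 (1.43%), 2 without the 2 shallow libraries (0.739%), 4 with edgeR (1.94%) and 12 with DESeq2 (5.8%), and 3 to 13 when 1 library was left out (1.31% to 4.23%). Between tissues in control cells (1) it was 0 with those groups alone (0.0701%), 0 without control thymus libraries 1 and 2 (0.225%), 0 without the 2 shallow libraries (0.159%) and 4 with DESeq2 (3.66%), and 0 to 10 when 1 library was left out (0.203% to 3.06%). Between tissues in cKO cells (0) it was 2 with DESeq2 (2.01%). The difference between the tissues in the genotype effect had 0 called members in every alternative. The cause of these moves was not tested. The labels do not say that a replicate number marks shared mice or a batch. Deviations of same-numbered libraries correlated between -0.10 and 0.08 over 18 pairs, 0 of them over 0.1, so the libraries were not treated as paired, although 8 of 12 correlated best with a library of their own number. With the replicate block the counts were 2 in thymus, 2 in liver (Slc2a3 added), 6 over both tissues (without Slc25a4), 1 between tissues in control cells and 0 in cKO cells. Depth limits control liver library 3 and cKO liver library 2, in which 1 read was worth 6.056 and 6.663 units.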
